A study of Aspergillus fumigatus with 4 samples.

Results

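The genes described here are 4 genes annotated as enzymes of D-xylose catabolism in *Aspergillus fumigatus* Z5, taken by their annotation and locus number from a table of 9540 genes. Other genes with related annotations may exist outside this set. They are the D-xylose reductase Xyl1 (Y699_06810), a xylitol dehydrogenase (Y699_08949), the xylitol dehydrogenase XdhB (Y699_09019) and the D-xylulose kinase (Y699_00823). Their coding lengths were 951, 1077, 1161 and 1722 bases in that order. Strain Z5 is a compost isolate and was cultured at 45 °C with shaking at 145 rpm. Its transcripts were sequenced on 4 carbon sources, with 1 library for each and no replicates. For xylan, cellulose and rice straw, mycelium pregrown on sucrose (20 h in the labels, a longer time in the paper's methods) was washed and moved for 16 h into medium without yeast extract that held oat spelt xylan, Avicel (a microcrystalline cellulose) or rice straw. The sucrose library comes from mycelium on sucrose, and how long that culture grew before harvest is not clear in the sources used here. Carbon source, transfer, medium and possibly culture age therefore cannot be told apart in any comparison with sucrose.

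D-xylose is the main sugar of the xylan backbone, and filamentous fungi use it in steps of reduction, oxidation and phosphorylation. Xylose reductase turns D-xylose into xylitol with NADPH, xylitol dehydrogenase turns xylitol into D-xylulose with NAD+, and D-xylulose kinase adds a phosphate, so that the product can enter the pentose phosphate pathway. Fungal xylose reductases can also act on L-arabinose, the other common pentose of plant cell walls. In other *Aspergillus* species the activator XlnR controls genes of xylan breakdown and of xylose use, and the repressor CreA holds many such genes down when a preferred sugar is present.

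The libraries held between 6820702 and 7553138 reads assigned to genes, and 1 read was worth between 0.132 and 0.147 RPM. RPM is a gene's reads per 1000000 reads of its library and is not divided by gene length. Between 9252 and 9275 genes had at least 1 read in a library. With 1 library per carbon source, every interval given here covers counting error only, and a difference between 2 libraries is not shown to be a difference between carbon sources. As in any bulk culture, fewer expressing cells and less RNA per cell cannot be told apart.

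All 4 genes had their highest RPM on xylan and their lowest on sucrose, and all ran in the order xylan, rice straw, cellulose, sucrose (the plot of levels by gene). Among 7447 genes at 10 RPM or more in any library, 1.29% had that order, 13.8% were highest on xylan and 22.4% were lowest on sucrose. For XdhB the order of rice straw and cellulose was within counting error, at a ratio of 1.04 (0.911 to 1.19). The enzymes were chosen with earlier results of these data known, so these shares are a description. The summed level of the 4 genes was 91.9 RPM on sucrose, 475 RPM on cellulose, 762 RPM on rice straw and 1358 RPM on xylan. Against sucrose, the sum was 14.8-fold higher on xylan (95% counting interval 13.6 to 16.0), 8.29-fold higher on rice straw (7.64 to 9.01) and 5.16-fold higher on cellulose (4.74 to 5.63). The sum on xylan was 2.86-fold that on cellulose (2.75 to 2.98) and 1.78-fold that on rice straw (1.72 to 1.84).

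**Figure D1:**
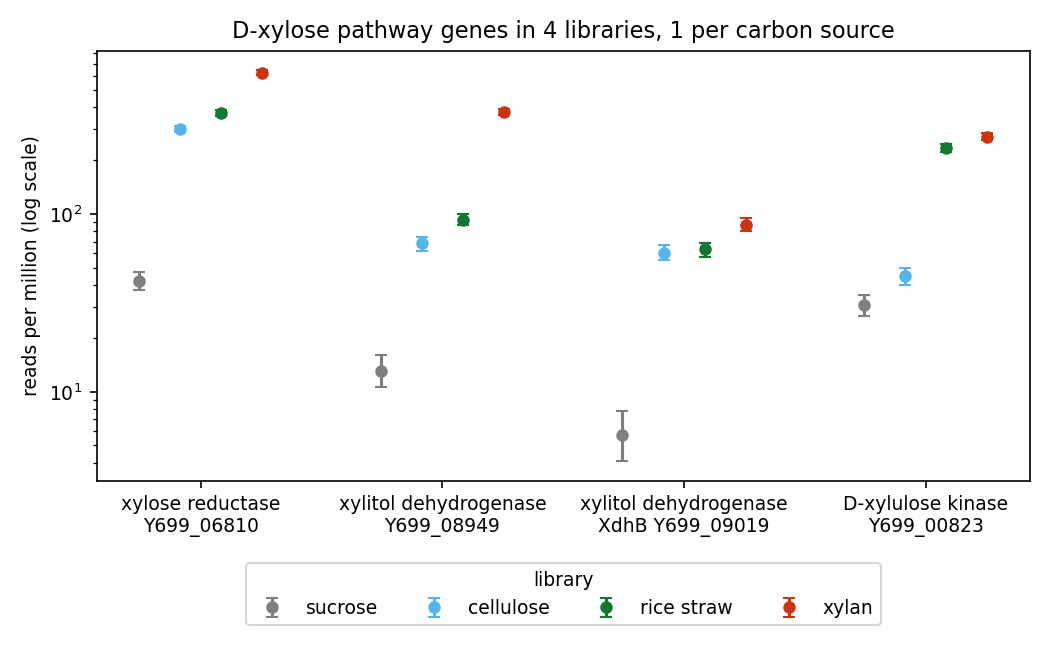
Level of each D-xylose pathway gene in RPM (vertical axis, log scale) in the sucrose, cellulose, rice straw and xylan libraries (colours), with exact 95% Poisson intervals as bars and 1 library per point. The D-xylulose kinase on cellulose, at 44.8 RPM, sits near its sucrose level of 30.8 RPM, whereas the other 3 genes on cellulose sit well above theirs.

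The D-xylose reductase, which carries out the first step, was the most abundant of the 4. It was read at 42.3 RPM on sucrose, 301 RPM on cellulose, 371 RPM on rice straw and 624 RPM on xylan, from 296, 2112, 2800 and 4255 reads. No 2 of these levels had overlapping counting intervals. On xylan it ranked 266th of all genes by RPM, against 3493rd on sucrose. It was 14.8-fold higher on xylan than on sucrose (13.1 to 16.7), 8.77-fold higher on rice straw (7.78 to 9.92) and 7.12-fold higher on cellulose (6.31 to 8.07). Among the polysaccharides it differed less, with 2.07 times as much on xylan as on cellulose (1.97 to 2.18) and 1.68 times as much as on rice straw (1.60 to 1.77).

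The xylitol dehydrogenase Y699_08949, whose description in the study's tables assigns it D-xylulose reductase activity, another name for the same step, stood out on xylan. It was read at 13.1 RPM on sucrose, 68.3 RPM on cellulose, 93.1 RPM on rice straw and 374 RPM on xylan, from 92, 479 and 703 reads in the first 3 of these. The xylan library lay far above the other 3, and no intervals overlapped. Its xylan to sucrose ratio of 28.5 (23.2 to 35.5) was the highest of the 4 genes and ranked 64th of 6629 genes at 10 RPM or more in either library. Its ratio was 7.09 for rice straw to sucrose (5.70 to 8.91) and 5.20 for cellulose to sucrose (4.15 to 6.57). On xylan it was 5.49 times the cellulose level (4.97 to 6.06) and 4.02 times the rice straw level (3.70 to 4.38).

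The second xylitol dehydrogenase, XdhB, had the fewest reads of the 4 on sucrose, rice straw and xylan, but not on cellulose. Its description also carries L-iditol 2-dehydrogenase activity, the oxidation of sugar alcohols such as sorbitol. It was read at 5.71 RPM on sucrose, 60.7 RPM on cellulose, 63.2 RPM on rice straw and 87.2 RPM on xylan, from 40, 426, 477 and 595 reads. Sucrose stood apart as the low library, and the intervals on cellulose and rice straw overlapped. Its ratio to sucrose was 15.3 on xylan (11.1 to 21.6), 11.1 on rice straw (8.002 to 15.7) and 10.6 on cellulose (7.68 to 15.1). Xylan exceeded cellulose by only 1.44 times (1.27 to 1.63) and rice straw by 1.38 times (1.22 to 1.56). The ratio of rice straw to cellulose was 1.04 (0.911 to 1.19). That last ratio became 1.35 with DESeq2 size factors, and no other ratio of the 4 genes had a counting interval that reached 1 under any of the 4 scalings tried.

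The D-xylulose kinase, which carries out the last step, had a different pattern. It was read at 30.8 RPM on sucrose, 44.8 RPM on cellulose, 235 RPM on rice straw and 273 RPM on xylan, from 216, 314, 1775 and 1859 reads. Sucrose and cellulose were the low libraries and rice straw and xylan the high ones. The kinase on cellulose was 1.45 times its sucrose level (1.22 to 1.73), while it was 8.84-fold higher on xylan (7.67 to 10.2) and 7.62-fold higher on rice straw (6.61 to 8.82). It was 6.09-fold higher on xylan than on cellulose (5.40 to 6.89) and 5.25-fold higher on rice straw than on cellulose (4.65 to 5.94). Xylan and rice straw differed by 1.16 times (1.09 to 1.24), which fell to 1.08 with TMM scaling.

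**Figure D2:**
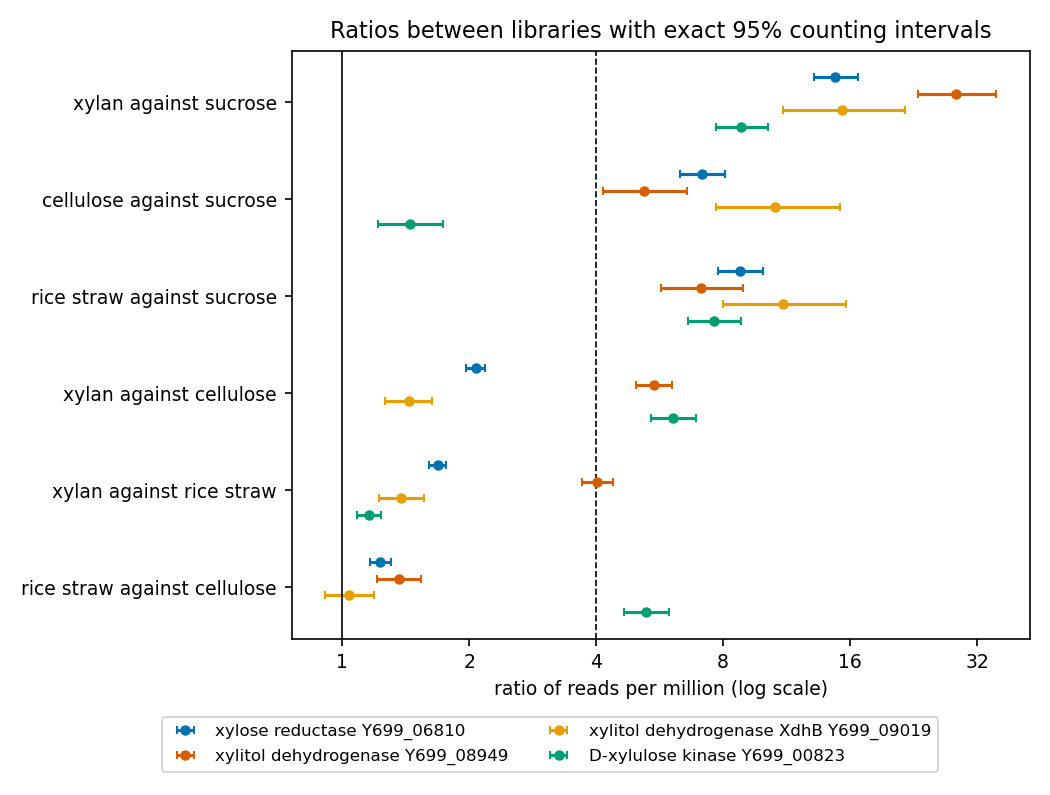
Ratio of RPM between 2 libraries (horizontal axis, log scale) for each D-xylose pathway gene (colours) in 6 comparisons, with exact 95% counting intervals as bars, a solid line at 1 and a dashed line at the 4-fold threshold. The kinase lies at 1.45 in cellulose against sucrose and at 5.25 in rice straw against cellulose, apart from the other 3 genes in both, and the xylitol dehydrogenase Y699_08949 lies farthest right in xylan against sucrose, at 28.5.

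Calls were made with the study's thresholds. A gene was called where its reads differed between 2 libraries in an exact two-sided binomial test, at a q (Benjamini-Hochberg, over all genes with a read) no higher than 0.0001, and where it differed at least 4-fold and reached 10 RPM in either library. In xylan against sucrose all 4 genes were called higher, where 3.16% of the 9392 genes tested were. Their median log2 ratio was 3.90, beside -0.20 over all genes tested. In rice straw against sucrose all 4 were again called higher, beside 7.61% of genes, with a median log2 ratio of 3.03 beside -0.30. In cellulose against sucrose 3 of 4 were called higher, beside 10.9% of genes, and the kinase was not called. The median log2 ratio there was 2.60 beside 0.07. These 3 comparisons share the sucrose library, and the 4 enzymes were chosen with earlier results of these data known. The shares of all genes therefore stand beside the calls as a description, not as a test of the set.

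Between polysaccharides fewer were called. In xylan against cellulose 2 of 4 were called higher, the kinase and the xylitol dehydrogenase Y699_08949, beside 6.49% of genes. In xylan against rice straw 1 of 4, the xylitol dehydrogenase Y699_08949, was called higher, beside 4.68% of genes. That call sits at the threshold, since its ratio was 3.75 with TMM factors and 3.79 with DESeq2 size factors, and neither called it. In rice straw against cellulose 1 of 4, the kinase, was called higher, beside 4.26% of genes. None of the 4 was called lower in any of the 6 comparisons, where 1.57% (xylan against sucrose), 7.12% (rice straw against sucrose), 7.28% (cellulose against sucrose), 9.65% (xylan against cellulose), 4.56% (xylan against rice straw) and 5.76% (rice straw against cellulose) of genes were. With an edgeR exact test that assumes a biological coefficient of variation of 0.2, the number of the 4 enzymes called was the same in each comparison, whereas with an assumed 0.4 none of the 4 was called in any.

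To ask whether the 4 genes moved by different factors, the ratio of one gene was divided by that of another in the same pair of libraries. Library totals cancel in this ratio of ratios, so it does not depend on the scaling. Of 36 such values, 6 gene pairs in 6 pairs of libraries, 29 had an exact 95% counting interval away from 1. No p-values were computed for them and no adjustment was made for their number. The values share genes and libraries, and intervals that cover counting error only are narrow at these read numbers. The same share over pairs of other genes was not computed, so the count is not read as a result about these enzymes.

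The kinase differed from all 3 other enzymes between sucrose and cellulose and between rice straw and cellulose. From sucrose to cellulose, XdhB changed by 7.31 times as much as the kinase (5.02 to 10.9), the reductase by 4.90 times as much (3.95 to 6.10) and the xylitol dehydrogenase Y699_08949 by 3.58 times as much (2.68 to 4.81). From cellulose to rice straw, the kinase changed by 5.05 times as much as XdhB (4.21 to 6.05), 4.26 times as much as the reductase (3.73 to 4.88) and 3.85 times as much as Y699_08949 (3.25 to 4.57). From cellulose to xylan the kinase changed by 4.24 times as much as XdhB (3.55 to 5.06) and 2.94 times as much as the reductase (2.58 to 3.36), while the interval of its ratio to Y699_08949 held 1. Without cellulose, Y699_08949 changed by 3.22 times as much as the kinase from sucrose to xylan (2.50 to 4.19) and by 3.47 times as much from rice straw to xylan (3.12 to 3.86). From sucrose to rice straw, where all 4 genes were called, 4 of 6 pairs had intervals that held 1. There the reductase and the kinase changed by 8.77 and 7.62 times, a ratio of 1.15 (0.952 to 1.39).

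The xylitol dehydrogenases, which share a reaction, also differed from each other in all 6 pairs of libraries. From sucrose to xylan Y699_08949 changed by 1.87 times as much as XdhB (1.24 to 2.77). From sucrose to cellulose it was the other way round, with XdhB changing by 2.04 times as much (1.36 to 3.11). From cellulose to xylan, Y699_08949 changed by 3.82 times as much as XdhB (3.25 to 4.48), and by 2.91 times as much from rice straw to xylan (2.51 to 3.38). Between cellulose and xylan, Y699_08949 and the kinase had ratios of 5.49 and 6.09, which differed by 1.11 times with an interval of 0.949 to 1.30. How reads that match more than 1 gene were handled is not given in the sources used here. Reads shared by the xylitol dehydrogenases could be split between them, and this was not tested.

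Levels of different genes were compared per kilobase of coding length, as RPKM (RPM divided by the length in kilobases). The reductase was the highest of the 4 in every library, from 44.4 RPKM on sucrose to 656 RPKM on xylan. The gene in second place changed with the carbon source. It was the kinase on sucrose, at 17.9 RPKM beside 12.2 RPKM for Y699_08949, and on rice straw, at 136 RPKM beside 86.4 RPKM. It was Y699_08949 on xylan, at 348 RPKM beside 158 RPKM for the kinase, and on cellulose, at 63.4 RPKM beside 52.3 RPKM for XdhB. The kinase was lowest on cellulose, at 26.0 RPKM, and XdhB was lowest on the other 3. Within each library no 2 genes had overlapping counting intervals.

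As a share of the 4 genes' summed reads per kilobase, the reductase made up between 53.0% on xylan and 69.1% on cellulose. The kinase made up 22.5% on sucrose, 20.5% on rice straw, 12.8% on xylan and 5.67% on cellulose. Y699_08949 made up 28.1% on xylan and between 13.0% and 15.3% on the other carbon sources. XdhB ranged from 6.07% on xylan to 11.4% on cellulose. Per kilobase, the reductase stood at 12.2 times the kinase on cellulose, 4.14 times on xylan, 2.86 times on rice straw and 2.48 times on sucrose. Y699_08949 stood at 4.63 times XdhB on xylan (4.23 to 5.07), 2.48 times on sucrose (1.69 to 3.69), 1.59 times on rice straw (1.41 to 1.79) and 1.21 times on cellulose (1.06 to 1.38).

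**Figure D3:**
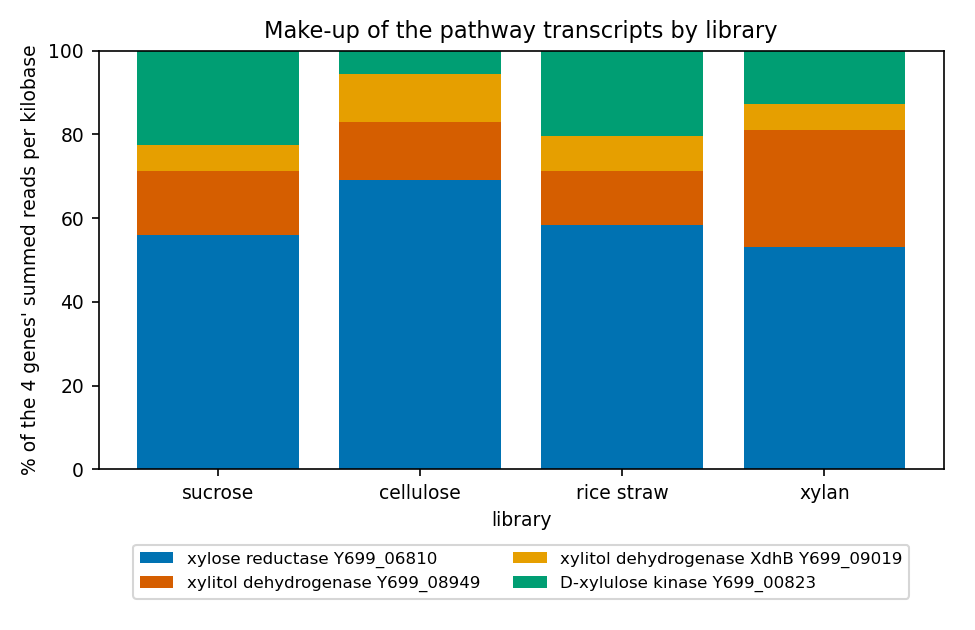
Share of each D-xylose pathway gene (colours) in the 4 genes' summed reads per kilobase of coding length (vertical axis, %), by library (horizontal axis). The kinase takes 5.67% on cellulose and between 12.8% and 22.5% elsewhere, and the xylitol dehydrogenase Y699_08949 takes 28.1% on xylan.

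The genes most like each enzyme were found by the distance between profiles of log2(RPM + 1) over the 4 libraries, each centred on its gene's mean, among the 7446 other genes at 10 RPM or more in any library. These distances rest on 4 points that share their libraries, and they are given as a description. They depend on the measure, since ranking by Pearson correlation instead kept 0 of the 5 genes named for the reductase, 1 of 5 for Y699_08949, 2 of 5 for XdhB and 1 of 5 for the kinase. The reductase and XdhB were close to each other, at a distance of 0.40, with XdhB in 2nd place for the reductase and the reductase in 3rd place for XdhB. The kinase was farther from the 3 others than they were from each other, and they ranked 169th, 170th and 327th of 7446 genes for it. Y699_08949 had the reductase in 9th place, XdhB in 23rd and the kinase in 49th.

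For the reductase the nearest gene was Y699_04652, an extracellular GDSL-like lipase, at 1.57, 16.1, 28.6 and 38.7 RPM on sucrose, cellulose, rice straw and xylan. Its xylan to sucrose ratio was 24.7, beside 14.8 for the reductase. Adding 1 RPM shrinks such ratios where the sucrose level is low, as it also is for Y699_05391, at 0.143 RPM on sucrose. After XdhB came Y699_05391, which has no description in the sources used, Y699_02424, annotated as an endoglucanase of family AA9, and Y699_05869, an alpha-galactosidase. The AA9 gene, from a family of oxidative enzymes that cleave polysaccharides, was also nearest to XdhB, at 50.1, 541, 668 and 845 RPM in the same order. XdhB further had Y699_05391, the reductase, Y699_07224 and Y699_05507 beside it. The paper lists Y699_05507 as a cellobiose dehydrogenase gene.

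For the xylitol dehydrogenase Y699_08949 the nearest gene was Y699_07619, the acetyl xylan esterase Axe1, which removes acetyl groups from the xylan chain. Axe1 was read at 1.28, 13.3, 18.3 and 57.3 RPM on sucrose, cellulose, rice straw and xylan. Its xylan to sucrose ratio was 44.6, beside 28.5 for Y699_08949. Next came Y699_05889, annotated as a UDP-galactose 4-epimerase, then Y699_03726, Y699_06324 and Y699_09260, which are named only by locus.

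For the kinase the nearest gene was Y699_04552, a protein with an AraC-like ligand binding domain, at a distance of 0.13. It was read at 31.8, 44.8, 217 and 257 RPM on sucrose, cellulose, rice straw and xylan, beside 30.8, 44.8, 235 and 273 RPM for the kinase. The kinase's other neighbours in profile were Y699_07322, Y699_07792, the hexokinase Y699_04619 and Y699_01740. The hexokinase, of the enzyme class that phosphorylates hexoses such as glucose, was read at 8.85, 8.41, 43.6 and 90.0 RPM in the same order.

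**Figure D4:**
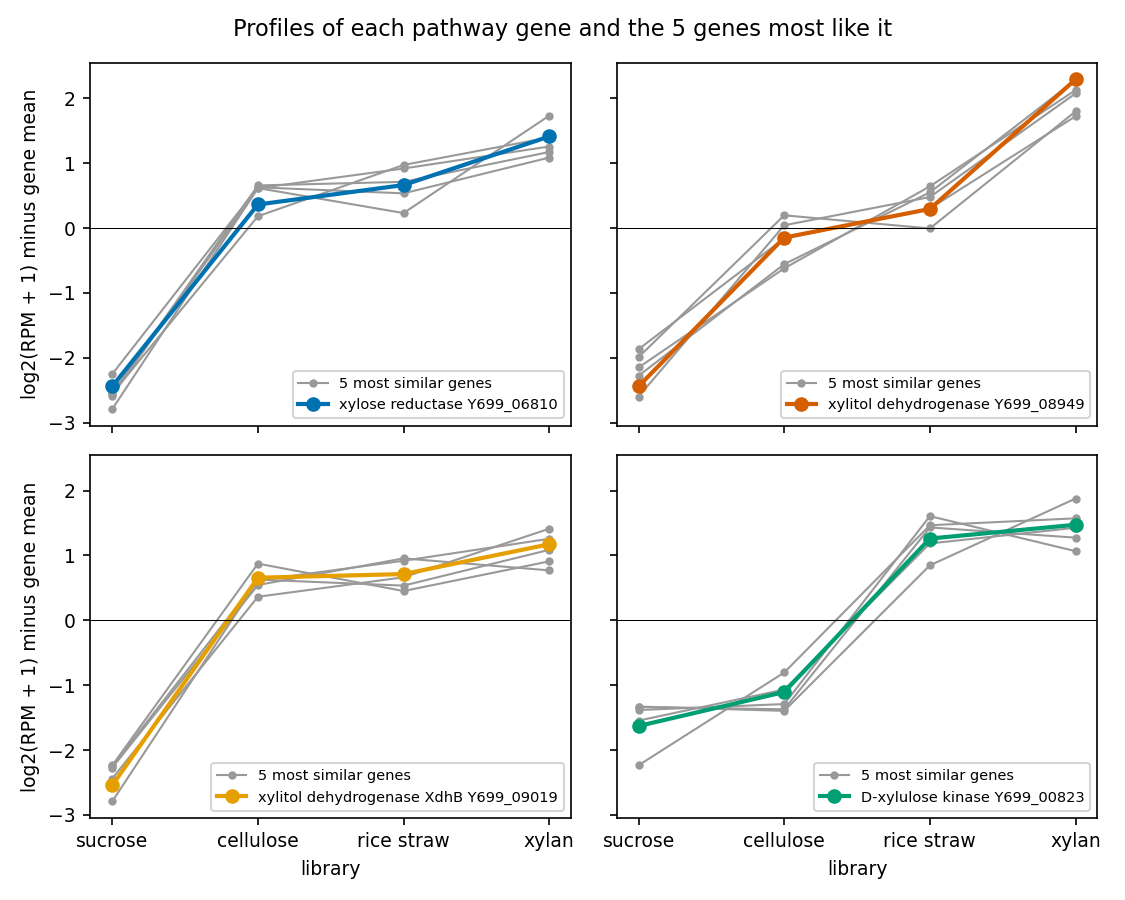
Profile of each D-xylose pathway gene (thick line) and of the 5 genes most like it (grey lines), as log2(RPM + 1) minus the gene's mean over the 4 libraries (vertical axis) by library (horizontal axis). The step between cellulose and rice straw is large in the kinase's panel and small in the panels of the reductase and XdhB.

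XlnR (Y699_02312), the homologue of the xylanolytic activator, was read at 23.0 RPM on sucrose and 20.97 RPM on xylan, against 179 RPM on cellulose and 226 RPM with rice straw. Its high libraries were cellulose and rice straw, whereas the 4 enzymes were highest on xylan. Its ratio of xylan to sucrose was 0.912 (0.723 to 1.15), or 1.06 with DESeq2 size factors. Its ratio was 7.78 for cellulose to sucrose (6.60 to 9.23) and 9.85 for rice straw to sucrose (8.38 to 11.7).

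Beyond the 4 enzymes, the study's supplement lists 18 other homologues of genes known to respond to xylose in related *Aspergillus* species. The paper describes the genes of this list as raised by xylose in those species, except 1, a monosaccharide transporter, that was lowered. In xylan against sucrose 3 of the 18 were called higher and 1 lower, beside 3.16% and 1.57% of all genes, with a median log2 ratio of 0.72 beside -0.20 over all genes. In cellulose against sucrose 5 were called higher and 2 lower (10.9% and 7.28% of all genes), and in rice straw against sucrose 6 were called higher and 2 lower (7.61% and 7.12%), with medians of 0.56 beside 0.07 and 1.48 beside -0.30. In xylan against cellulose 4 were called higher and 3 lower (6.49% and 9.65%), in xylan against rice straw 3 and 3 (4.68% and 4.56%), and in rice straw against cellulose 5 and 2 (4.26% and 5.76%). Apart from XlnR, the called genes of the list with the most reads were a beta-glucosidase, a sugar transporter, an aldose 1-epimerase and a dehydrogenase.

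The beta-glucosidase Y699_09150, of the enzymes that release glucose from cellobiose, was read at 36.3 RPM on sucrose and 23.3 RPM on xylan, against 2664 RPM on cellulose and 1521 RPM with rice straw. The monosaccharide transporter Y699_02697 was highest on sucrose, at 2226 RPM, against 97.9 RPM on xylan, 37.3 RPM on cellulose and 30.2 RPM with rice straw. For the transporter lowered by xylose in the related species, the paper likewise reports a Z5 homologue that fell on the polysaccharides, without naming its locus in the text. The aldose 1-epimerase Y699_01966, which interconverts the ring forms of aldoses, was read at 134, 160, 89.4 and 381 RPM on sucrose, xylan, cellulose and rice straw. The short chain dehydrogenase Y699_06256 was read at 124, 373, 48.9 and 206 RPM in the same order and was called higher on both xylan and rice straw than on cellulose. The sugar transporter Y699_05888, chosen after its values were seen, was read at 2.14, 175, 10.1 and 138 RPM in that order. Its high and low libraries were those of the kinase. Unlike the kinase, it was called higher on cellulose than on sucrose, at 4.73-fold (2.68 to 8.88).

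A list of 18 xylan-degrading enzymes of the study (endo-xylanases, beta-xylosidases, acetyl xylan esterases and an alpha-glucuronidase) shares 2 genes with the list above. In xylan against sucrose 8 were called higher, beside 3.16% of all genes, in cellulose against sucrose 9 were called higher and 1 lower, beside 10.9% and 7.28%, and in rice straw against sucrose 12 were called higher, beside 7.61%. In xylan against cellulose 3 were called higher and 5 lower, beside 6.49% and 9.65%, with a median log2 ratio of 0.07 beside -0.27. In xylan against rice straw 0 were called higher and 5 lower, beside 4.68% and 4.56%, with a median log2 ratio of -1.32 beside 0.11 over all genes. The 4 D-xylose enzymes had a median of 0.61 in that comparison. The endo-xylanase Y699_04481, which cuts the xylan chain, was read at 4.14 RPM on sucrose and 62.6 RPM on xylan, against 2342 RPM on cellulose and 2502 RPM with rice straw. The endo-xylanase Y699_07611 was read at 0.428, 146, 947 and 2359 RPM in the same order. The xylosidase Y699_04662, at 4.42, 5.57, 168 and 355 RPM, and the acetyl xylan esterase Y699_05457, at 0, 3.52, 101 and 304 RPM, were also highest on rice straw. A count of 0 on sucrose does not show that a transcript was absent, and 3 reads there would be 0.428 RPM. These 4 genes, the most abundant called ones of the list, were lower on xylan than on cellulose or rice straw. Other genes of the list were not, and the acetyl xylan esterase Y699_07619 (Axe1, above) was highest on xylan.

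A further 11 genes of sugar alcohol, pentose and pentose phosphate metabolism came from a table of the study that holds only genes that varied in these libraries, so their counts are not independent evidence of change. In xylan against sucrose 1 of the 11 was called higher and 0 lower (3.16% and 1.57% of all genes). In cellulose against sucrose 4 were called higher and 5 lower (10.9% and 7.28%), and in rice straw against sucrose 3 and 3 (7.61% and 7.12%). The sorbitol/xylulose reductase Y699_02329 was read at 313 RPM on sucrose and 682 RPM on xylan, against 53.0 RPM on cellulose and 773 RPM with rice straw. The phosphoketolase Y699_07616, which splits D-xylulose phosphate, was read at 760, 764, 31.1 and 164 RPM in that order, so that cellulose was its lowest library. The mannitol-1-phosphate dehydrogenase Y699_02774, of mannitol metabolism, was read at 830, 1479, 607 and 2439 RPM. The 6-phosphogluconate dehydrogenase family gene Y699_05034, named for an enzyme of the oxidative pentose phosphate pathway, was read at 123, 366, 170 and 620 RPM.

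The 4 enzymes lie at separate loci by their locus numbers, which stand here for order along the genome. The 3 loci on either side of each gave 24 loci. In xylan against sucrose 0 of these 24 were called in either direction, which is near the background of 3.16% higher and 1.57% lower over all genes. In rice straw against sucrose 1 was called higher, beside 7.61% of all genes, and in cellulose against sucrose 6 were called higher and 2 lower, beside 10.9% and 7.28%. In xylan against cellulose 0 were called higher and 6 lower, beside 6.49% and 9.65%. Rice straw against cellulose gave 1 higher and 6 lower, beside 4.26% and 5.76%, and xylan against rice straw gave 0 and 0, beside 4.68% and 4.56%.

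The loci directly beside an enzyme that were called in any comparison are described next. The share of all genes called in any comparison was not computed, so their number is not read as a result. The locus Y699_09020 beside XdhB, an alpha-glucosidase, was read at 12.1 RPM on sucrose, 36.7 RPM on xylan, 101 RPM on rice straw and 927 RPM on cellulose. It was 76.4-fold higher on cellulose than on sucrose (61.7 to 95.8). The locus Y699_06809 beside the reductase was read at 7.99, 18.3, 6.35 and 142 RPM in the same order. Beside the kinase, Y699_00822 was read at 201, 153, 92.7 and 47.6 RPM, and Y699_00824, a tRNA exportin, at 61.9, 55.3, 139 and 246 RPM.

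**Figure D5:**
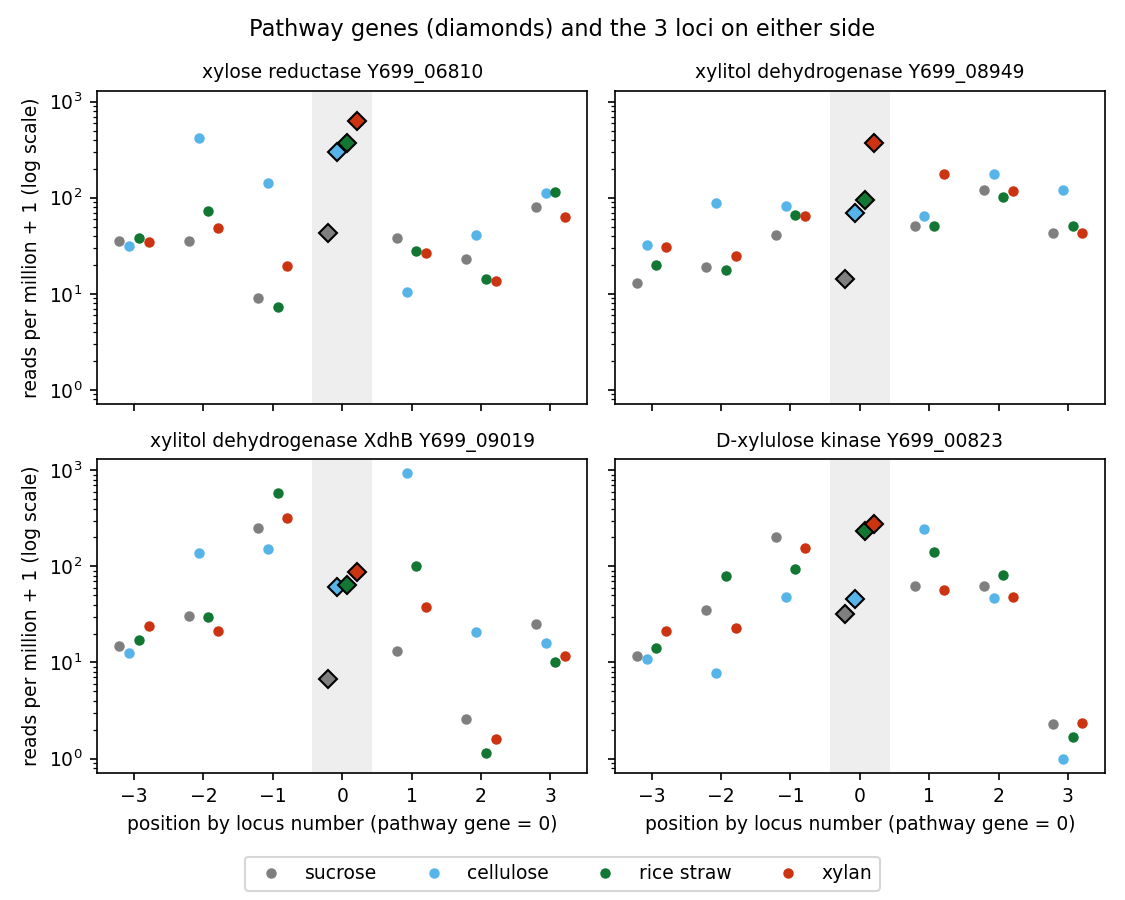
Level of each D-xylose pathway gene (diamonds, position 0) and of the 3 loci on either side by locus number (circles), as RPM plus 1 (vertical axis, log scale) in the 4 libraries (colours). Xylan is the highest library at each pathway gene. Of the 8 loci directly beside them it is highest at 1, where 13.8% of all genes at 10 RPM or more were highest on xylan. That locus, Y699_08950, was not called in any comparison and was chosen after its values were seen. It is annotated as a D-lactate dehydrogenase and was read at 175 RPM on xylan.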

How the data were processed

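The authors mapped clean RNA-seq reads of poly(A) RNA, made into cap-selected and sonicated cDNA, to the Z5 genes (Bowtie 0.12.2 in the submitters' processing notes) and deposited read counts for each gene in 4 libraries. How strand and reads with several matches were treated is not given in the sources used here. Each RPM value deposited by the authors equals the reads over the library total, with no division by length, whatever the unit's name in the paper says. All gene lengths are multiples of 3 and were taken as coding length. The deposited log2 ratios and q-values are the authors' own comparisons and were not used.

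Counts were used as deposited. Ratios carry exact 95% Clopper-Pearson counting intervals on the share of reads, levels exact Poisson intervals, and ratios of ratios exact conditional intervals. Reads amplified by PCR are not independent molecules, so these cover counting error only. The calls were tested on simulated Poisson counts without spread between cultures, so that test cannot address such spread. Alternatives were TMM factors and exact tests with an assumed variation (edgeR 4.0.16), DESeq2 1.42.0 size factors, totals without the top 1% of genes, the MARS formula, no RPM filter, a 2-fold threshold, other profile measures and shares not divided by length. No DESeq2 test was run. Python 3.11.15, scipy 1.17.1 and R 4.3.3 were used.

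The members and the lists were chosen with earlier results of these data known. Genes named are the 4 enzymes, the 5 most similar to each, the 4 called genes with the highest RPM of each list, XlnR, and called loci directly beside an enzyme; any other is marked. RefSeq locus tags of strain Af293 matched 3 of the 4 enzymes, and the kinase's symbol there is xkiA. That assembly is of another strain, so no coordinates or sequences are given.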

Additional observations from a re-analysis of the deposited data

How the results depend on the processing

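With 1 library per carbon source nothing here measures the spread between cultures, and 40 reads of XdhB on sucrose set the widest intervals. The 4 enzymes kept the direction of all 24 ratios with TMM factors, DESeq2 size factors and totals without the top 1% of genes. The other alternatives for the calls changed only the test or the threshold, so they could not change a ratio. With an assumed coefficient of variation of 0.4, 0 enzymes were called in any comparison, which ended the calls on the ratios 14.8, 28.5, 15.3 and 8.84 (xylan against sucrose, reductase, Y699_08949, XdhB and kinase), 7.12, 5.20 and 10.6 (cellulose against sucrose, the first 3), 8.77, 7.09, 11.1 and 7.62 (rice straw against sucrose), 5.49 and 6.09 (xylan against cellulose, Y699_08949 and kinase), 4.02 (xylan against rice straw, Y699_08949) and 5.25 (rice straw against cellulose, kinase). Under it the genes called in either direction fell from 444 to 70, from 1711 to 347, from 1386 to 214, from 1518 to 192, from 869 to 96 and from 943 to 114, in the order xylan, cellulose and rice straw against sucrose, xylan against cellulose, xylan against rice straw, and rice straw against cellulose. A 2-fold threshold called 1547, 3535, 3412, 3433, 2412 and 2942 genes in that order and added the reductase in xylan against cellulose at 2.07. In xylan against rice straw 0 enzymes were called with TMM factors, DESeq2 size factors or totals without the top 1% of genes, where the ratio of Y699_08949 was 3.75, 3.79 and 3.75. Rescaling moved the log2 ratios of all genes by up to 0.38 (DESeq2 size factors, rice straw against cellulose). With DESeq2 size factors the share of calls that were higher went from 66.9% to 77.1% in xylan against sucrose, from 51.7% to 65.1% in rice straw against sucrose, from 40.2% to 51.7% in xylan against cellulose and from 42.5% to 61.0% in rice straw against cellulose. That share fell from 59.9% to 57.2% in cellulose against sucrose and from 50.6% to 46.4% in xylan against rice straw. Of the 5 most similar genes, a pseudocount of 0.1 kept 3 for the reductase and 2 for the kinase. A pseudocount of 5 kept 3 for the reductase, 2 for Y699_08949, 3 for XdhB and 3 for the kinase. Pearson correlation kept 0, 1, 2 and 1 in that order, so the lists of similar genes depend on the measure. Shares not divided by length gave the kinase 33.5% on sucrose and 9.43% on cellulose. No paired analysis was possible because each carbon source has 1 library.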
